A study of Mus musculus with 35 samples.

Results

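The genes described here are 34 genes that lie near Akt1 on mouse chromosome 12. They were chosen by position, from a list of symbols around the targeted locus, and no measured value entered the choice. Of the 34 genes, 32 had a probe set with 1 gene symbol on both array types, and all 32 passed the filter on low values at both ages. They stand among 16710 genes tested at postnatal day 15 and 16305 at day 25. Rd3l and Traf3 were not analysed here. In gene order the stretch runs from Rcor1, 28 places before Akt1, to Tmem121, 21 places after it, and Siva1 and Zbtb42 are the direct neighbours of Akt1.

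Akt1 encodes a serine/threonine kinase that carries growth factor and insulin signals to cell survival, growth and metabolism. When a gene is targeted in embryonic stem cells, the DNA on both sides of the altered allele is inherited with it, so genes beside a targeted locus can carry alleles of the stem cell strain, or lie close to an inserted cassette. A genotype difference in such a neighbour can therefore stem from its position as well as from loss of the targeted protein. The neighbours of Akt1 have unrelated roles. Among them are translation and RNA processing (Eif5, Trmt61a, Tdrd9), transcription by RNA polymerase III (Brf1), chromatin (Rcor1, Mta1) and the cytoskeleton (Inf2, Kif26a, Klc1, Cep170b, Mark3, Cdc42bpb). Others are protein folding (Bag5), cell death (Siva1, Ppp1r13b), DNA repair (Xrcc3) and Notch signalling (Jag2).

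RNA of whole testis of C57BL6 males was measured on Affymetrix arrays. The groups crossed Akt1 genotype (wild type Akt1+/+, heterozygous Akt1+/- and homozygous mutant Akt1-/-) with exposure to propylthiouracil (PTU), a goitrogen that blocks thyroid hormone synthesis, or no exposure, at postnatal day 15 or 25. There were 3 arrays, each from its own mouse per the design text, in every group but the PTU-exposed homozygous group of day 25, which had 2. Day 15 (18 arrays) and day 25 (17 arrays) used separate array designs, and each age was tested by itself. The sources used here do not give how the targeted allele was built or the strain of its flanking DNA. Levels are log2 intensities, differences are log2 differences ± the standard error from limma, and a gene is called where its adjusted p (limma, Benjamini-Hochberg over all genes tested at that age) lies under 0.05. In bulk testis, fewer cells of a type and less RNA per cell cannot be told apart.

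The Sertoli cell markers were expressed in every group, and several groups stood apart in cell type markers. At day 15 the mean level of 8 markers of pachytene and later spermatocytes was 9.63 to 10.19 in unexposed wild type arrays and 5.82 to 6.67 in unexposed homozygous arrays, and all 8 were called lower. In this comparison 5 of 5 early meiosis markers were also called lower, and 4 of 5 spermatogonia markers and 4 of 5 Sertoli markers higher (Sertoli mean 9.74 to 9.87 in wild type and 10.34 to 10.55 in homozygous arrays). In the other 4 groups of day 15 the spermatocyte marker mean lay between 6.30 and 8.42. At day 25 the 2 PTU-exposed homozygous arrays had a spermatid marker mean of 5.44 to 5.87, against 7.87 to 13.51 over all other arrays of that age, and an epididymis and fat marker mean of 9.35 to 10.04, against 5.33 to 9.17 elsewhere. Their Leydig marker mean was 7.62 to 7.63, against 9.30 to 10.91 elsewhere, and their spermatocyte marker mean 10.01 to 11.81, against at least 12.66. Against exposed wild type, 8 of 8 spermatocyte markers, 4 of 5 spermatid, 3 of 4 Leydig, 3 of 5 macrophage and the 1 blood marker were called lower. Called higher were 5 of 5 spermatogonia markers and 2 of 5 epididymis and fat markers. Other lists were mixed, with 4 Sertoli markers higher and 2 lower and 3 early meiosis markers higher and 2 lower. The level of Spink8, an epididymal transcript, was 12.92 and 12.75 in these 2 arrays. Spink8 also exceeded 7 in PTU-exposed heterozygous replicate 2 and wild type replicate 3 of day 25, and in unexposed wild type replicates 2 and 3 and PTU-exposed homozygous replicate 2 of day 15. Bright unnamed probe sets split the day 15 arrays into 2 sets, the first of which held all 6 wild type arrays and the second 6 arrays of the mutant genotypes. The part of these differences in the results below was not tested beyond the settings named.

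Akt1 itself was read first, as a check of the labels. At day 15 its probe set read 9.34, 9.48 and 9.71 in unexposed wild type testis and 9.40, 9.23 and 9.04 in unexposed homozygous testis. With PTU it read 9.92, 9.95 and 10.09 for wild type and 9.74, 9.01 and 9.18 for homozygous mice. The homozygous arrays were lower in the exposed groups and overlapped wild type in the unexposed ones. Averaged over exposures the difference was -0.48 ± 0.15 (adjusted p = 0.0283), a call that ended at an adjusted p of up to 0.442 in 10 of 23 alternative settings. At day 25 the brightest of the 4 Akt1 probe sets did not separate the genotypes (-0.06 ± 0.06, adjusted p = 0.477), while the mean of all its probe sets did (-0.22, adjusted p = 0.0372). A second Akt1 probe set, 1425711_a_at, spanned 8.92 to 9.33 (wild type, 6 arrays), 8.28 to 8.91 (heterozygous, 6) and 8.01 to 8.56 (homozygous, 5). On this probe set the homozygous arrays lay below every wild type array (-0.79 ± 0.13, adjusted p = 0.000363). The sources used here do not say where these probe sets lie relative to the altered part of the gene, so they check the labels only in part.

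The homozygous genotype changed about as large a share of the Akt1 neighbours as of all genes, at both ages and in both exposures. In unexposed testis at day 15, 9 of the 32 neighbours were called (28.1%), 5 higher and 4 lower, where 28.9% of all genes were called, 14.6% higher and 14.2% lower. In PTU-exposed testis at day 15, limma called none of the 32 and 0% of all genes, while 8 neighbours and 4266 of all genes had an unadjusted p under 0.05. In unexposed testis at day 25, 4 neighbours were called (12.5%, against 12.7% of all genes), 2 in each direction (5.35% of all genes higher and 7.32% lower). In PTU-exposed testis at day 25, 20 were called (62.5%, against 61.1%), 16 higher and 4 lower (32.7% of all genes higher and 28.4% lower). The median difference of the 32 neighbours was 0.08, 0.05, -0.02 and 0.28 in these 4 comparisons, beside 0.08, -0.01, -0.03 and 0.00 over all genes. The median size without sign was 0.21, 0.13, 0.15 and 0.55 for the neighbours and 0.20, 0.16, 0.16 and 0.43 for all genes.

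**Figure D1:**
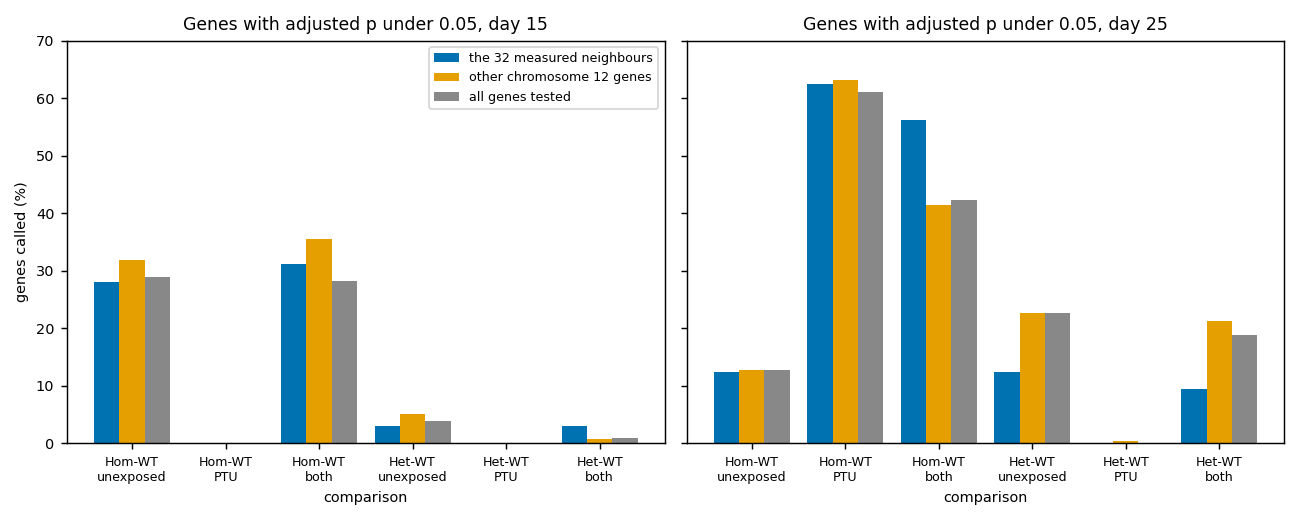
Share of genes called (adjusted p under 0.05, in %) among the 32 measured neighbours, the other tested genes of chromosome 12 and all genes tested, for 6 genotype comparisons at day 15 (left) and day 25 (right). At day 25 the neighbours' bar is above that of all genes in the homozygous average (56.2% against 42.4%) and below it in the heterozygous average (9.38% against 18.8%) and in unexposed heterozygous testis (12.5% against 22.6%).

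In unexposed testis at day 15 the neighbours with lower levels in homozygous mice were Tdrd9, Bag5, Tnfaip2 and Eif5. Tdrd9, a helicase of the piRNA pathway that silences transposons in male germ cells, read 11.05, 10.88 and 11.01 in wild type, 10.81, 10.51 and 10.73 in heterozygous and 9.55, 9.83 and 10.14 in homozygous arrays. All homozygous arrays lay below all other unexposed arrays, a difference of -1.14 ± 0.19 (adjusted p = 0.000269). Bag5, a co-chaperone of the heat shock protein Hsp70 family, read 8.92, 8.75 and 8.67 in wild type and 8.21, 8.08 and 8.0 in homozygous arrays. Its difference of -0.68 ± 0.09 had the smallest adjusted p of the neighbours in this comparison, 3.47e-05, and the arrays did not overlap. Eif5, a translation initiation factor that triggers GTP hydrolysis on the initiation complex, read 12.14, 11.98 and 11.98 in wild type and 11.54, 11.68 and 11.38 in homozygous arrays (-0.50 ± 0.13, adjusted p = 0.00919). Tnfaip2, a relative of an exocyst subunit, fell by 0.65 on the log2 scale (SE 0.14, adjusted p = 0.00204), from 6.75 to 7.20 in wild type to 6.08 to 6.48 in homozygous arrays. In the same arrays the spermatocyte and early meiosis markers were lower; their part in these values was not tested.

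The neighbours with higher levels in the same comparison were Kif26a, Zfyve21, Cep170b, Nudt14 and Exoc3l4. Kif26a, an atypical kinesin, read 7.46, 7.41 and 7.49 in wild type and 8.06, 7.90 and 7.94 in homozygous arrays (0.51 ± 0.11, adjusted p = 0.00203). Zfyve21, a FYVE-domain protein, read 9.31, 9.58 and 9.53 against 9.93, 9.78 and 9.95 (0.42 ± 0.11, adjusted p = 0.0109). In both genes every homozygous array lay above every wild type array. Cep170b, a relative of a centrosomal protein, read 9.18 to 9.34 in wild type and 9.60 to 9.75 in homozygous arrays (0.40 ± 0.12, adjusted p = 0.0175). Nudt14, a nucleotide sugar hydrolase, differed by 0.38 ± 0.12 (adjusted p = 0.0302), with homozygous replicate 3, at 7.98, inside the wild type range of 7.80 to 8.0. Exoc3l4, another relative of the exocyst, differed by 0.37 ± 0.12 (adjusted p = 0.023), from 6.26 to 6.40 in wild type to 6.65 to 6.70 in homozygous arrays. The other 23 neighbours lay between -0.15 and 0.30. In the same arrays spermatogonia and Sertoli markers were higher; their part in these values was not tested.

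Some of these calls rested on single arrays, and the count of called neighbours fell when any 1 array of the compared groups was left out. Nudt14 was not among the genes followed one by one through these settings. The Zfyve21 call ended without unexposed wild type replicate 1 (0.33, adjusted p = 0.0704). The Cep170b call ended without homozygous replicate 1 (adjusted p = 0.0704) or wild type replicate 3 (adjusted p = 0.0712), and the Exoc3l4 call without homozygous replicate 1 or 3 or wild type replicate 1 or 2 (adjusted p from 0.0551 to 0.0818). Without the day 15 arrays with Spink8 above 7, which leaves 1 unexposed wild type array whose spread is assumed to be that of the other groups, Bag5, Tdrd9 and Zfyve21 were still called among the neighbours and 2476 genes in all. Eif5 (-0.61, adjusted p = 0.0584) and Kif26a (0.50, adjusted p = 0.0575) kept their size there and missed the threshold.

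In PTU-exposed testis at day 15 limma called no neighbour (0% of all genes), and Bag5 and Tdrd9 lay close together in wild type and homozygous mice. Bag5 read 8.32, 8.15 and 8.22 in exposed wild type and 8.19, 8.21 and 8.09 in exposed homozygous arrays, all near the level of unexposed homozygous testis (-0.06 ± 0.09, adjusted p = 0.69). Tdrd9 read 10.71, 10.37 and 10.34 in exposed wild type and 10.70, 10.35 and 9.92 in exposed homozygous arrays (-0.15 ± 0.19, adjusted p = 0.638). Both ranges overlapped. The change of the genotype difference with exposure was called for these genes alone among the 32 (6.25%, against 16.4% of all genes, 8.23% upward and 8.13% downward): 0.62 ± 0.13 for Bag5 (adjusted p = 0.00403) and 0.99 ± 0.27 for Tdrd9 (adjusted p = 0.019). In the exposed groups the largest differences of neighbours were those of Crip1 (0.43 ± 0.16), Tmem121 (0.40 ± 0.13) and Amn (0.37 ± 0.12), and the smallest adjusted p was 0.101. Without homozygous replicate 1, 6 neighbours and 3308 genes in all were called in the exposed groups. Arrays of this comparison with the same sample number had correlated deviations from their group means (r from 0.14 to 0.56). The labels give the number alone and name no pairs. With the number as a replicate block 2 neighbours were called, Amn (0.37 ± 0.10) and Crip1 (0.43 ± 0.12), among 750 genes (4.49%).

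**Figure D2:**
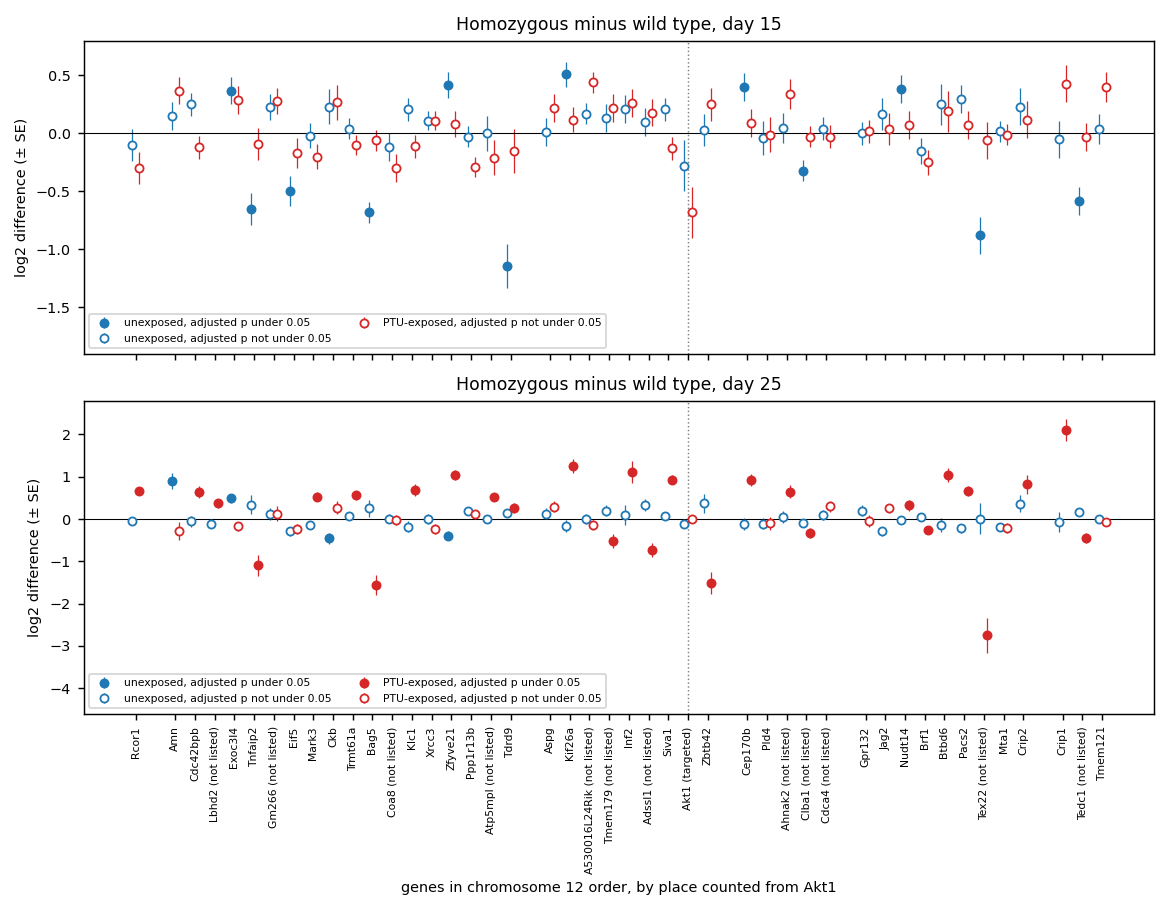
Homozygous minus wild type for the genes of the stretch in chromosome order (x axis, places counted from Akt1, dotted line), at day 15 (upper) and day 25 (lower), in log2 ± SE; blue stands for unexposed, red for PTU-exposed, and filled points are called. Called genes are spread over the whole stretch on both sides of Akt1, and the day 25 points of exposed testis reach from -2.75 (Tex22, not in the list) to 2.10 (Crip1).

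In unexposed testis at day 25, Amn and Exoc3l4 were higher and Ckb and Zfyve21 lower in homozygous mice. Amn encodes amnionless, the membrane partner of the vitamin uptake receptor cubilin. It read 6.89, 6.77 and 6.53 in wild type, 7.19, 7.74 and 7.59 in heterozygous and 7.35, 7.63 and 7.90 in homozygous arrays (0.90 ± 0.19, adjusted p = 0.015), so that both mutant groups lay above wild type. Exoc3l4 read 6.00, 5.87 and 5.86 in wild type and 6.29, 6.57 and 6.34 in homozygous arrays (0.49 ± 0.10, adjusted p = 0.0128). Ckb, the brain-type creatine kinase, read 7.73, 7.85 and 8.01 against 7.62, 7.21 and 7.39 (-0.46 ± 0.14, adjusted p = 0.0433). Zfyve21 read 10.19, 10.04 and 10.18 against 9.75, 9.72 and 9.78 (-0.39 ± 0.11, adjusted p = 0.0327). The arrays of the compared groups did not overlap in these genes, and the share of all genes without such overlap was not counted. The Zfyve21 call ended in 7 of 16 alternative settings, at adjusted p up to 0.127, and its difference had the opposite sign to day 15. The count of 4 called neighbours fell to 2 without unexposed wild type replicate 1, to 1 without homozygous replicate 3 and to 0 without wild type replicate 3, which left 84 genes called in all. In this comparison 4 of 5 spermatid markers were called higher in homozygous testis.

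In PTU-exposed testis at day 25 the 16 neighbours with higher levels in homozygous mice included Crip1, Kif26a, Inf2, Btbd6, Zfyve21, Siva1 and Cep170b. Crip1, a small LIM-domain protein, read 8.80, 9.41 and 9.98 in wild type, 8.73, 9.34 and 8.75 in heterozygous and 11.21 and 11.78 in homozygous arrays (2.10 ± 0.26, adjusted p = 1.54e-05). Zfyve21 read 10.04, 10.09 and 10.41 in wild type and 11.14 and 11.29 in homozygous arrays (1.04 ± 0.12, adjusted p = 9.3e-06). Kif26a read 6.40, 6.31 and 6.46 against 7.42 and 7.87 (1.25 ± 0.16, adjusted p = 1.81e-05). In each of these genes both homozygous arrays lay above every other array of day 25. Btbd6, an adaptor of a ubiquitin ligase, differed by 1.04 ± 0.17 (adjusted p = 0.000125) and Cep170b by 0.92 ± 0.15 (adjusted p = 0.000109). Trmt61a, the catalytic subunit of a tRNA methyltransferase, differed by 0.56 ± 0.10 (adjusted p = 0.000268), and Rcor1, the scaffold of the CoREST corepressor, by 0.66 ± 0.10 (adjusted p = 6.4e-05). The remaining higher neighbours were Cdc42bpb, Crip2, Klc1, Mark3, Nudt14, Pacs2 and Tdrd9, with differences between 0.26 (Tdrd9) and 0.82 (Crip2).

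The 4 neighbours with lower levels in that comparison were Bag5, Zbtb42, Tnfaip2 and Brf1. Bag5 read 12.68, 12.55 and 12.47 in wild type and 11.62 and 10.40 in homozygous arrays (-1.56 ± 0.23, adjusted p = 4.59e-05). Tnfaip2 differed by -1.09 ± 0.25 (adjusted p = 0.00153), with homozygous levels of 7.76 and 6.39 against 7.99 to 8.30. Brf1, a subunit of the initiation factor of RNA polymerase III, differed by -0.26 ± 0.09 (adjusted p = 0.0202). The 2 homozygous arrays differed from each other by more than 1 log2 unit in Bag5, Zbtb42, Tnfaip2 and Inf2. Without homozygous replicate 2 the differences became -0.95 for Bag5 and -0.84 for Zbtb42, both still called, 0.46 for Inf2 (adjusted p = 0.0503) and 0.33 for Crip2 (adjusted p = 0.188), and 0.59 for Cep170b, still called. With 1 exposed homozygous array left, the spread in these fits comes from the other groups and the lone array is assumed to vary like them. The 2 arrays are those with high epididymal and spermatogonia markers and low spermatid, spermatocyte and Leydig markers; the part of that in the 20 calls was not tested.

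Averaged over exposures, 10 neighbours were called at day 15 (31.2%, against 28.3% of all genes), 6 higher and 4 lower (13.4% of all genes higher and 14.8% lower). At day 25, 18 were called (56.2%, against 42.4%), 14 higher and 4 lower (20.6% of all genes higher and 21.8% lower). Amn (0.26 ± 0.08, adjusted p = 0.0295) and Inf2 (0.24 ± 0.08, adjusted p = 0.043) joined the day 15 calls here without a call within either exposure, and of 23 alternative settings 10 ended the Amn call and 15 the Inf2 call. The same settings ended the averaged call of Zfyve21 in 10 cases (adjusted p up to 0.338) and that of Cep170b in 12 (adjusted p up to 0.258). Within the first array set 2 neighbours were called (9.11% of all genes), Bag5 (-0.33 ± 0.08, adjusted p = 0.0378) and Tdrd9 (-0.53 ± 0.14, adjusted p = 0.0405). With the array set as a block (17.9% of all genes called) the called neighbours were Bag5, Exoc3l4, Kif26a, Tdrd9 and Tnfaip2. Bag5 and Tdrd9 were called in all 23 alternative settings, between -0.45 and -0.32 for Bag5 and between -0.74 and -0.53 for Tdrd9. The day 15 count was 16 without PTU-exposed homozygous replicate 1 (6737 genes in all), and 6 without PTU-exposed homozygous replicate 2 or 3 or PTU-exposed wild type replicate 1. The day 25 count was 11 without PTU-exposed homozygous replicate 2 (4636 genes in all) and 23 without replicate 1 (8281 genes). At day 25, Mta1, a subunit of the NuRD chromatin complex, was called in the average alone (-0.20 ± 0.07, adjusted p = 0.0317), as was Eif5 (-0.27 ± 0.08, adjusted p = 0.015).

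Siva1 and Zbtb42, on either side of Akt1, were not called at day 15 in any genotype comparison and at day 25 were called in exposed homozygous testis. Siva1 was called in unexposed homozygous testis at day 15 with array weights (0.21, adjusted p = 0.0419, 44.3% of all genes called) and in the first array set alone (0.25, adjusted p = 0.0459, 37.9%). Siva1, a mediator of apoptosis, read 9.57, 9.61 and 9.65 in unexposed wild type, 9.98, 9.75 and 9.74 in unexposed homozygous, and with PTU 9.92, 9.90 and 9.99 in wild type and 9.76, 9.62 and 10.04 in homozygous arrays at day 15. The averaged difference was 0.04 ± 0.07 (adjusted p = 0.677). At day 25 Siva1 read 11.44, 11.24 and 11.28 in unexposed wild type and 11.55, 11.29 and 11.30 in unexposed homozygous arrays (0.06 ± 0.09, adjusted p = 0.707), ranges that overlapped. In exposed testis it read 11.33, 11.37 and 11.42 in wild type, 11.34, 11.38 and 11.21 in heterozygous and 12.30 and 12.32 in homozygous arrays (0.93 ± 0.10, adjusted p = 5.88e-06). The 2 exposed homozygous arrays lay above all 15 others, and with 1 of them left out the difference was 0.95 or 0.92, where the lone array has no spread of its own. Zbtb42, a zinc finger transcription factor, read 10.84, 11.03 and 11.06 in unexposed wild type and 11.31, 11.19 and 11.54 in unexposed homozygous arrays (0.37 ± 0.23, adjusted p = 0.302), groups that did not overlap. That difference was called without the exposed homozygous arrays (0.37, adjusted p = 0.0263, 20.8% of all genes called) and with array weights (0.43, adjusted p = 0.0221, 29.9%). In exposed testis it read 10.97, 10.88 and 10.66 against 9.99 and 8.63 (-1.52 ± 0.26, adjusted p = 0.000136). The neighbours on the 2 sides thus moved in opposite directions in the exposed homozygous arrays of day 25.

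**Figure D3:**
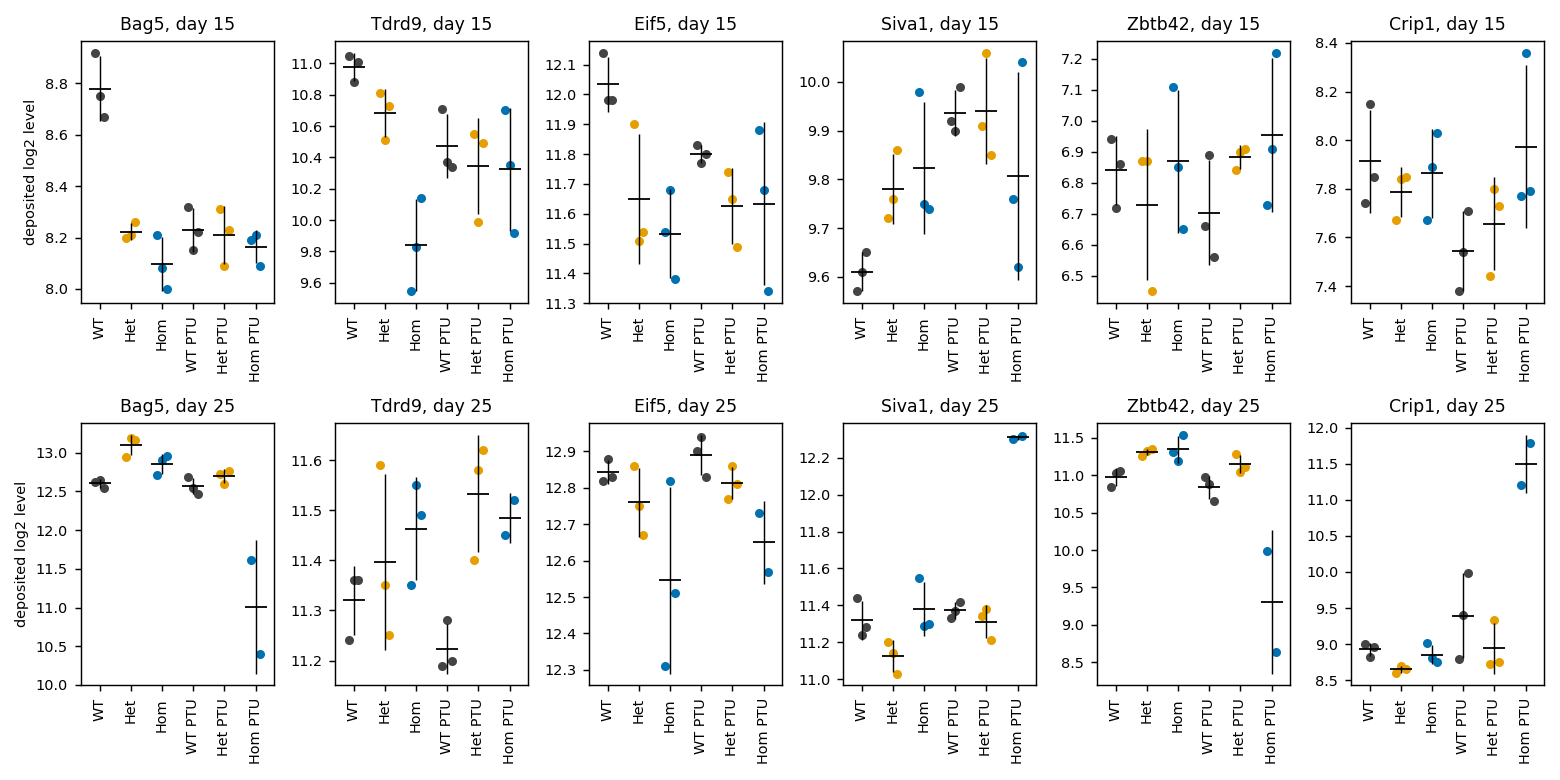
Deposited log2 level of 6 neighbours in every array (points), with group mean and SD (bars), at day 15 (upper) and day 25 (lower); each panel has its own y axis. Bag5 and Tdrd9 separate unexposed wild type (WT) from unexposed homozygous (Hom) arrays at day 15, and Siva1, Zbtb42, Crip1 and Bag5 set the 2 PTU-exposed homozygous arrays apart at day 25.

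Fewer neighbours were called in heterozygous than in homozygous unexposed testis at day 15 (1 and 9), and equal numbers in unexposed testis at day 25 (4 and 4). Heterozygous and homozygous arrays were not compared directly, so whether their differences from wild type differ was not tested. The midpoint comparison, averaged over exposures, asks only whether heterozygous levels depart from the middle of the other genotypes. At day 15, 1 neighbour was called in unexposed testis (3.12%, against 3.95% of all genes, 0.718% higher and 3.23% lower), Bag5 at 8.20, 8.21 and 8.26 (-0.56 ± 0.09, adjusted p = 0.00174), which lay below every wild type array. Same-number arrays of this comparison also had correlated deviations (r from 0.18 to 0.37). With the number as a replicate block 4 neighbours were called, Bag5, Eif5 (-0.39 ± 0.10), Cep170b (0.39 ± 0.11) and Amn (0.38 ± 0.10), among 1303 genes (7.8%). Without heterozygous replicate 1, 5 neighbours and 1308 genes in all were called. In exposed testis at day 15 limma called 0 neighbours (0% of all genes), with 0 neighbours and 887 of all genes at an unadjusted p under 0.05. Averaged over exposures Bag5 was called again (3.12%, against 0.999%, 0.126% higher and 0.874% lower), at -0.29 ± 0.06 (adjusted p = 0.0384), and 15 of 23 alternative settings ended that call, among them the loss of any 1 of 10 of the 12 arrays. No neighbour departed from the midpoint of wild type and homozygous at day 15 by limma, with 2 of 32 at an unadjusted p under 0.05 and 0% of all genes called.

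At day 25, 4 neighbours were called in unexposed heterozygous testis (12.5%, against 22.6% of all genes, 8.32% higher and 14.3% lower): Amn (0.78 ± 0.19, adjusted p = 0.0117) and Exoc3l4 (0.31 ± 0.10, adjusted p = 0.0381) higher, Zfyve21 (-0.53 ± 0.11, adjusted p = 0.00509) and Rcor1 (-0.42 ± 0.09, adjusted p = 0.00638) lower. Zfyve21 read 9.82, 9.48 and 9.53 in these arrays, below all 3 wild type arrays. The spermatid marker mean was 11.87 to 13.51 in these arrays and 8.83 to 11.28 in unexposed wild type, ranges that did not overlap; its part in these values was not tested. Without the PTU-exposed homozygous arrays, which add to the shared spread, 11 neighbours were called in this comparison (30.8% of all genes) and 7 in unexposed homozygous testis (20.8% of all genes), with the differences themselves as before. The unexposed heterozygous count was 2 without heterozygous replicate 2 (1503 genes in all) or wild type replicate 3 (1433 genes). In exposed heterozygous testis limma called no neighbour (0.092% of all genes, 0.0245% higher and 0.0675% lower), with 5 of 32 at an unadjusted p under 0.05. In the average over exposures 3 were called (9.38%, against 18.8%, 6.67% higher and 12.2% lower): Amn (0.44 ± 0.14, adjusted p = 0.036), Ppp1r13b (0.21 ± 0.06, adjusted p = 0.026), which encodes a p53-binding activator of apoptosis, and Zfyve21 (-0.33 ± 0.08, adjusted p = 0.0099). That count was 1 without exposed heterozygous replicate 3, unexposed heterozygous replicate 2, or exposed wild type replicate 2 or 3. Heterozygous levels departed from the midpoint of the other genotypes in 12 neighbours at day 25 (37.5%, against 49.2%), 4 above it and 8 below (22.9% and 26.4% of all genes), by 0.64 ± 0.13 for Bag5 and -0.87 ± 0.15 for Crip1. All 12 were also called between exposed homozygous and exposed wild type testis, a comparison that called 61.1% of all genes. Both comparisons use the same exposed arrays, so this overlap is in part built in. The overlap among all genes that departed from the midpoint was not counted. The midpoint includes the 2 exposed homozygous arrays with low spermatid and high epididymal markers, and their part in these departures was not tested.

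Calls at both ages were compared next, with no test of the difference in shares. Bag5, Cep170b, Eif5, Inf2, Kif26a and Zfyve21 were called at both ages with 1 sign in the average over exposures, 6 of 32 (18.8%), against 13% of the 14281 genes tested at both ages. Tdrd9 was called at both ages with opposite signs (-0.64 ± 0.13 at day 15 and 0.20 ± 0.07 at day 25). Eif5, Inf2, Crip2, Aspg and Pld4 had 1 sign in all 4 combinations of age and exposure (15.6%, against 14.5% of all genes). In Eif5 these 4 differences were -0.50, -0.17, -0.29 and -0.24, of which the first passed the test. Of the 6 genes called at both ages, Bag5, Cep170b, Kif26a and Zfyve21 had at least 1 combination of the opposite sign. Bag5 was lower in unexposed homozygous testis at day 15 and not called there at day 25 (0.25 ± 0.21, adjusted p = 0.447).

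**Figure D4:**
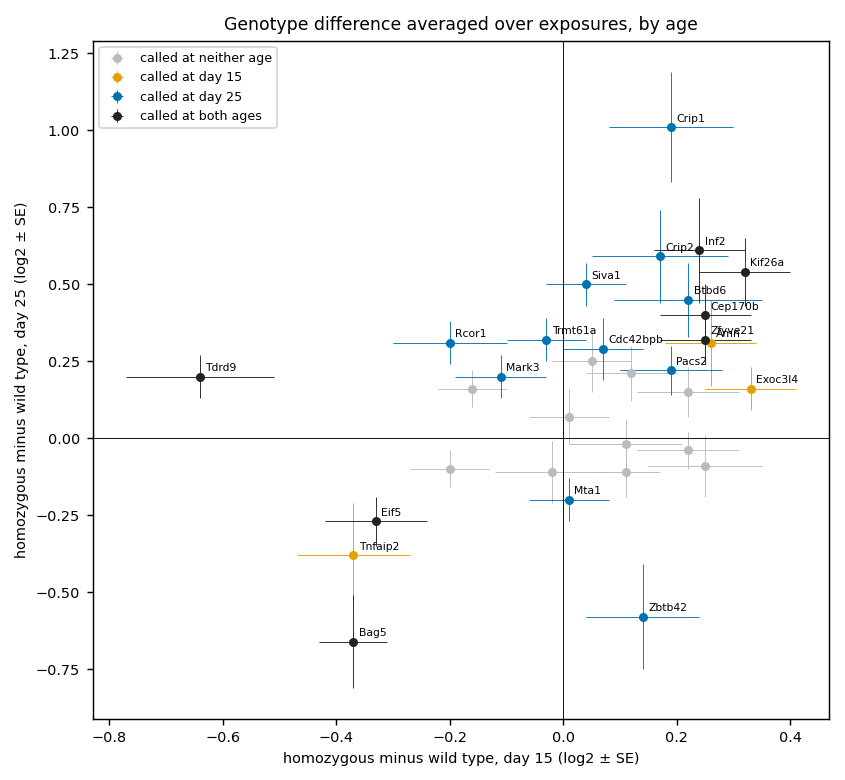
Homozygous minus wild type averaged over exposures at day 15 (x axis) and day 25 (y axis), in log2 ± SE, for the 32 neighbours; colours mark the ages at which a gene was called. The points called at both ages lie in the lower left (Bag5, Eif5), the upper right (Inf2, Kif26a, Cep170b, Zfyve21) and the upper left (Tdrd9).

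Shares of called genes in the stretch lay within the range found along the rest of chromosome 12. At day 15 the 43 tested genes of the stretch had 14 calls in the average over exposures (32.6%), and the bins of 50 gene places elsewhere on chromosome 12 ranged from 16.7% to 48.6%. At day 25 the 44 tested genes of the stretch had 22 calls (50%), against 23.1% to 61.1% in the other bins. Of the tested neighbours that the list does not hold, 4 of 11 were called at day 15 (36.4%) and 4 of 12 at day 25 (33.3%). Among other genes of chromosome 12 the share was 35.5% at day 15 and 41.4% at day 25. In the average over exposures chromosome 12 had the highest share of all chromosomes at day 15, 35.4%, where the X chromosome had the lowest at 16.1%. At day 25 chromosome 12 had 42% and the X chromosome the highest share, 49%. In unexposed testis at day 15 the X chromosome had the highest share, 32.9%, and chromosome 12 had 31.5%. No neighbour had all homozygous arrays on 1 side of all wild type arrays at either age, where 2.49% of all genes did at day 15 and 3.43% at day 25. Heterozygous and wild type arrays did not overlap in Brf1 at day 15 (1 of 32, against 0.91% of all genes) and in Ppp1r13b at day 25 (1 of 32, against 5.54%). Genes outside the stretch had smaller p than any neighbour at either age. Ppp1r36 (-1.39 ± 0.18), Dlk1 (1.13 ± 0.15), Cep128, Atl1 and Trib2 led the rest of chromosome 12 at day 15, and Arg2 (1.54 ± 0.14), Tmem30b, Pnma1, Ppp4r4 and Trib2 at day 25. The smallest p of all belonged to 4921524L21Rik, Slc13a5, Catsperd, Ttc16 and Rasl2-9 at day 15 and to Clca3a2, Cldn8, Agpat1, Khdc1a and 2300002M23Rik at day 25.

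Single probe sets showed 1 separation that the gene-level values hid. Klc1, a light chain of the motor kinesin, has 3 probe sets at day 25. On 1448541_at the unexposed wild type arrays read 7.41, 7.40 and 7.39, the heterozygous arrays 7.10, 7.07 and 6.25 and the homozygous arrays 6.42, 6.95 and 6.25, and the exposed arrays read 7.53, 7.59 and 7.74, then 7.27, 7.28 and 7.33, then 7.20 and 6.79. All 5 homozygous arrays and all 6 heterozygous arrays lay below all 6 wild type arrays. The homozygous difference was -0.86 ± 0.20 without and -0.62 ± 0.23 with PTU (adjusted p = 0.0159 and 0.0288 over all probe sets), and -0.74 ± 0.15 in the average (adjusted p = 0.00162). The brightest Klc1 probe set, 1417005_at, differed by 0.25 ± 0.10 (adjusted p = 0.0526), the third, 1428881_at, by -0.12 ± 0.10 (adjusted p = 0.34), and the single Klc1 probe set of day 15 by 0.05 ± 0.07 (adjusted p = 0.584). This was 1 of 52 tested neighbour probe sets without overlap (1.92%), where 4.97% of all probe sets did not overlap (0 of 33 at day 15, against 2.56%), and 1 of 52 called in both exposures with 1 sign (1.92%, against 2.29%).

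Clba1, 6 places after Akt1 and not in the list, was singled out after its values were seen. Its probe set 1451533_at spanned 10.05 to 10.21 (wild type), 9.46 to 10 (heterozygous) and 9.32 to 9.89 (homozygous) over the arrays of day 25 (-0.54 ± 0.08, adjusted p = 0.000284). Its other probe set, 1424940_s_at, differed by -0.22 ± 0.08 (adjusted p = 0.034), a call that ended in 11 of 17 alternative settings (adjusted p up to 0.213). Clba1 held the 1 of 18 tested probe sets of unlisted neighbours without overlap of homozygous and wild type arrays (5.56%, against 4.97% of all probe sets). Klc1, Clba1 and Akt1 each had 1 probe set on which these arrays did not overlap and 1 or more on which they did.

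Other neighbours had probe sets that disagreed in direction at day 25. Pacs2, which sorts proteins between endoplasmic reticulum and other membranes, had 1 probe set at 0.22 ± 0.08 (1426963_at, adjusted p = 0.0471) and another at -0.34 ± 0.13 (1434255_at, adjusted p = 0.0436), both called. Eif5 had 3 probe sets between -0.29 and -0.21 and 2 at 0.13 and 0.21, and the mean of all 5 was not called (-0.09, adjusted p = 0.425). Inf2, a formin that shapes actin filaments, differed by 0.61 ± 0.17 on its brighter probe set (adjusted p = 0.012) and by -0.11 ± 0.10 on 1432184_a_at (adjusted p = 0.416). Rcor1 differed by 0.31, -0.10 and 0.09 on its 3 probe sets, of which the first was called. The mean of all probe sets ended the call of Inf2 (0.25, adjusted p = 0.104) and of Rcor1 (0.10, adjusted p = 0.331). Xrcc3, a DNA repair gene (-0.11 and 0.19), and Jag2, a Notch ligand (-0.02 and 0.06), also had probe sets of opposite sign, with none called in the average. All 4 Siva1 probe sets of day 25 were positive in the average, from 0.22 to 0.52, and 3 were called.

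Head-to-head neighbours offer a finer comparison, since they share promoter DNA. Among genes of the stretch measured at both ages, the promoter windows of Bag5 and Coa8 (a mitochondrial assembly factor, not in the list) overlap by 185 bases on opposite strands and those of Xrcc3 and Zfyve21 by 210. The windows, 250 bases before to 50 after a gene start, are from RefSeq on GRCm38.p6; capitals mark the stretch that a window shares with its partner, and the sequences are shown because 1 gene of each pair was called in homozygous testis and the other was not.
Bag5 (chr12:111712904-111713203, minus strand): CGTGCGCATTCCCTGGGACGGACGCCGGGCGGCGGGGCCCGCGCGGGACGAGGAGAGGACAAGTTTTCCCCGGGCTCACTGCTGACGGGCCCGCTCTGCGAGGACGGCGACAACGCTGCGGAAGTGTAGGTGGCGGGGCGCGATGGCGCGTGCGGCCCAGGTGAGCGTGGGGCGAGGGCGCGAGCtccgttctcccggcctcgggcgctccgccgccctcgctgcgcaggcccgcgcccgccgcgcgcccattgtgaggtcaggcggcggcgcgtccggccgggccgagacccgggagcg
Coa8 (chr12:111713019-111713318, plus strand): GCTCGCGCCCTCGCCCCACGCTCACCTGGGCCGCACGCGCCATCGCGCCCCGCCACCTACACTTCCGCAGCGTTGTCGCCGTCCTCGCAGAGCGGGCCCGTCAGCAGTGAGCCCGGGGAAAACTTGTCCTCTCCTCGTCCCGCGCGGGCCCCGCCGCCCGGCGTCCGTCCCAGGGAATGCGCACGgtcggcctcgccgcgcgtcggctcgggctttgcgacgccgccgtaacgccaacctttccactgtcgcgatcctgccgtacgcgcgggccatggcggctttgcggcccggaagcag
Xrcc3 (chr12:111813830-111814129, minus strand): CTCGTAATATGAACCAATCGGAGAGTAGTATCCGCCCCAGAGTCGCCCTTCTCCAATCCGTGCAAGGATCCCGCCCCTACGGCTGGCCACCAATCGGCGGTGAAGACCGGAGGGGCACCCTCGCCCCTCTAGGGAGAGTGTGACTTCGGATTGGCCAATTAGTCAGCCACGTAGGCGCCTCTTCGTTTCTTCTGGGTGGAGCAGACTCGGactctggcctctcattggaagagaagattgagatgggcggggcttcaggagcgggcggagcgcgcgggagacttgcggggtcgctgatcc
Zfyve21 (chr12:111813920-111814219, plus strand): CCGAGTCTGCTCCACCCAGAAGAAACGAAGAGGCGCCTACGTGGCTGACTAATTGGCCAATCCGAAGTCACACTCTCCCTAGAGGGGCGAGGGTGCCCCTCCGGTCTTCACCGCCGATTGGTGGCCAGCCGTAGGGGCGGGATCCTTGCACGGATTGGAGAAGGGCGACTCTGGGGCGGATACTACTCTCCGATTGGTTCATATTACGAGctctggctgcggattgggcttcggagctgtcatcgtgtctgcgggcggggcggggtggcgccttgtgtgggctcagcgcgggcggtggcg
The Bag5 and Coa8 windows hold 52 and 50 CpG and the Xrcc3 and Zfyve21 windows 24 and 27, where the median of all windows is 7. All 4 hold the GC box GGGCGG on either strand, as do 35.7% of the 32851 windows in the table and 80% of the 40 windows of the listed genes. The Xrcc3 and Zfyve21 windows also hold a CCAAT box (37.4% of all windows), and none of the 4 holds TATAAA (13.6%) or TGACGTCA (1.79%). These are matches of letters, searched on both strands.

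Within each pair the partners were compared in the same arrays. Coa8 read 8.88, 8.73 and 8.61 in unexposed wild type and 8.74, 8.44 and 8.69 in unexposed homozygous arrays of day 15 (-0.12 ± 0.12, adjusted p = 0.508), where Bag5 separated the groups. In exposed testis at day 25 it differed by -0.02 ± 0.12 (adjusted p = 0.868), beside -1.56 for Bag5. Xrcc3 differed by -0.23 ± 0.12 there (adjusted p = 0.12), beside 1.04 for Zfyve21. The genotype difference of Bag5 minus Coa8, averaged over exposures, was -0.16 at day 15 (exact permutation p = 0.32, two-sided, labels exchanged within exposures in 400 ways) and -0.65 at day 25 (exact permutation p = 0.11, 200 ways). That of Xrcc3 minus Zfyve21 was -0.14 at day 15 (exact permutation p = 0.235) and -0.44 at day 25 (exact permutation p = 0.24). Over these 4 tests the smallest adjusted p was 0.32, so the averaged pair differences did not pass. Within exposures the Bag5 minus Coa8 difference was -0.56 without and 0.24 with PTU at day 15, and 0.24 and -1.54 at day 25. The Xrcc3 minus Zfyve21 difference was -0.3 without and 0.02 with PTU at day 15, and 0.39 and -1.26 at day 25. Each average thus joins differences of opposite sign, and the pair differences within exposures were not tested.

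PTU itself, averaged over genotypes, changed 4 neighbours at day 15 (12.5%, against 12% of all genes, 3.88% higher and 8.09% lower): Klc1 (0.21 ± 0.06) was higher and Tnfaip2 (-0.38 ± 0.08), Rcor1 (-0.30 ± 0.08) and Bag5 (-0.16 ± 0.05) were lower. At day 25 it changed 21 (65.6%, against 63.9%), 14 higher and 7 lower (36.3% of all genes higher and 27.6% lower), among them Zfyve21 (0.65 ± 0.07) and Crip1 (1.13 ± 0.14). Of the 21 neighbours called for a genotype difference that changed with exposure at day 25 (65.6%, against 59.4%), 15 shifted upward and 6 downward in exposed testis (33.1% and 26.3% of all genes). The PTU average of day 25 includes the 2 exposed homozygous arrays, whose levels differed from the other exposed arrays in Crip1, Siva1, Bag5 and Zbtb42 as given above.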

How the data were processed

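Whole testis RNA was read on MoGene 1.0 arrays at day 15 and Mouse Genome 430 arrays at day 25. The deposited values are log2 intensities, which the authors made with RMA per the submitters' processing notes (the sources used here name no version). Array medians spanned 7.02 to 7.12 at day 15 and 6.46 to 6.55 at day 25; the number of arrays limits the precision.

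Probe sets were named through the platform annotation. Of 35556 probe sets at day 15, 21789 had 1 gene symbol, 1621 several and 12146 none, and of 45101 at day 25, 34958, 932 and 9211. Those with several or none were left out. Each gene was read by its probe set with the highest mean, and genes were kept where at least 2 arrays exceeded the 25th percentile of all values (5.56 and 4.76). A limma fit (3.58.1, R 4.3.3) on all groups of an age gave each comparison, with Benjamini-Hochberg adjustment over all genes. On simulated data, 44% of genes changed by 0.5 and 96% of those changed by 1 were found in the unexposed homozygous comparison of day 15, and 30% and 82% in the exposed one of day 25. The simulation changed 50 genes at each size, where 28.9% and 61.1% of all genes were called in these comparisons. The adjustment depends on that share, so the simulated rates need not hold for these data.

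Same-number arrays had correlated deviations from the group means (r above 0.1 in every pair) in exposed homozygous against wild type (r from 0.14 to 0.56) and unexposed heterozygous against wild type (r from 0.18 to 0.37) of day 15. The labels give sample numbers alone and name no pairs, so the replicate block rests on these correlations. The submitters dropped 1 exposed Akt1-/- array of day 25 for quality. Genes named in full are Siva1, Zbtb42, called neighbours with the smallest p in the average over exposures, up to 12 an age, those called within an exposure at both ages, those with disagreeing probe sets, and leading genes elsewhere; other named genes were chosen after their values were seen. The genes and marker lists were chosen with earlier results of these data known. Alternatives changed the filter, probe set rule, normalization, array weights, blocks and the arrays included. Leaving out the exposed homozygous arrays and fitting within the first array set were chosen after seeing the data.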

Additional observations from a re-analysis of the deposited data

Results flagged for a closer look

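These values were picked out because the homozygous minus wild type difference changed between unexposed and PTU-exposed testis, by limma's interaction test; each is the exposed minus the unexposed difference on the log2 scale. At day 15 the change was 0.62 for Bag5 and 0.99 for Tdrd9. In both genes the unexposed difference was below 0 and the exposed one near 0.

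At day 25, 15 neighbours shifted upward. The changes were 2.17 for Crip1, 1.42 for Kif26a, 1.42 for Zfyve21, 1.18 for Btbd6, 1.03 for Cep170b and 1.02 for Inf2. They were 0.88 for Pacs2, 0.88 for Siva1, 0.86 for Klc1, 0.73 for Ckb, 0.70 for Rcor1, 0.69 for Cdc42bpb, 0.67 for Mark3, 0.55 for Jag2 and 0.48 for Trmt61a. The 6 downward shifts were -1.9 for Zbtb42, -1.81 for Bag5, -1.43 for Tnfaip2, -1.18 for Amn, -0.66 for Exoc3l4 and -0.31 for Brf1. All of the day 25 values use the 2 exposed homozygous arrays, in which epididymal markers were high and spermatid markers low; the part of that in these values was not tested.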

How the results depend on the processing

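Among the 25 day 15 and 37 day 25 values followed through the settings, no called value turned its sign. Pacs2, whose day 25 probe sets were called in opposite directions, was not among these values. Of the values not called, the day 15 average of Siva1 (0.04) ran from -0.02 to 0.11, and at day 25 the Akt1 probe sets 1440950_at and 1442759_at ran from -0.03 to 0.03 and from -0.13 to 0.08. Of 514 comparisons of 25 named day 15 values with an alternative setting, 407 kept their side of the threshold, 102 lost the call and 5 gained one; of 612 for 37 day 25 values, 578 kept it, 29 lost it and 5 gained one. Counts below are of called neighbours, and the cause of their changes was not tested. Brackets give the share of all genes called in the same setting. That share also moved, so a count without it is not a result about the neighbours. At day 15 array weights called 22% of all genes in unexposed heterozygous testis (3.95% without weights) and 7.52% in the heterozygous average (0.999%). They called 29.3% for the change with exposure (16.4%) and 21.8% in the PTU average (12%).

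At day 15, unexposed homozygous testis had 9, with 6 to 8 when 1 array was left out and 3 without arrays with Spink8 above 7. Exposed homozygous testis had 0 (0%), with 0 to 6 when 1 array was left out, 1 with array weights (7.1%) and 2 with the replicate block (4.49%). The homozygous average had 10, with 6 to 16 when 1 array was left out, 5 with a term for the array set, 2 in the first set alone and 2 without arrays with Spink8 above 7. Its probe sets had 10, with 6 to 16 when 1 array was left out, 5 with a term for the array set and 2 without arrays with Spink8 above 7. Unexposed heterozygous testis had 1, with 1 to 5 when 1 array was left out, 6 with array weights, 4 with the replicate block and 0 in the first set alone. The heterozygous average had 1, with 0 to 1 when 1 array was left out, 2 with array weights, 3 with the replicate block, and 0 with quantile normalization, a term for the array set, the first set alone, the compared groups alone, or no arrays with Spink8 above 7. The change with exposure had 2, with 1 to 3 when 1 array was left out, 4 with array weights, 6 with a term for the array set and 8 in the first set alone. The PTU average had 4, with 2 to 6 when 1 array was left out, 8 with array weights, 1 in the first set alone and 0 without arrays with Spink8 above 7.

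At day 25, unexposed homozygous testis had 4 (12.7%), with 0 to 3 when 1 array was left out. It had 10 with array weights (29.9%) and 2 with the replicate block (9.7%). Without arrays with Spink8 above 7 it had 7, and without the exposed homozygous arrays 7 (20.8%). Exposed homozygous testis had 20, with 15 to 24 when 1 array was left out, and the homozygous average 18, with 11 to 23; its probe sets had 25, with 14 to 33. Unexposed heterozygous testis had 4 (22.6%), with 2 to 6 when 1 array was left out. It had 9 with array weights (31.1%), 10 with the compared groups alone and 11 without arrays with Spink8 above 7. Without the exposed homozygous arrays it had 11 (30.8%), and with every probe set on its own 7. Exposed heterozygous testis had 0 (0.092%), and 7 with array weights (14.3%). The heterozygous average had 3 (18.8%), with 1 to 4 when 1 array was left out and 5 with the mean of all probe sets. It had 10 with array weights (34.4%), 9 with the compared groups alone and 8 without arrays with Spink8 above 7. Without the exposed homozygous arrays it had 9 (26.7%), and with every probe set on its own 7. The midpoint comparison had 12 (9 to 17 when 1 array was left out), the change with exposure 21 (17 to 23) and the PTU average 21 (19 to 23).

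Outside the comparisons with correlated same-number arrays, pair correlations ran from -0.51 to 0.38. The replicate block gave 10 and 12 called neighbours in unexposed and averaged homozygous testis of day 15, and 18 and 17 in exposed and averaged homozygous testis of day 25. Leaving out the exposed homozygous arrays or those with Spink8 above 7 leaves no exposed homozygous array at day 25, so its comparisons were not run there.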
